A study of Mus musculus with 6 samples.

Results

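Lymphocytes are the T, B and natural killer (NK) cells of the immune system, and their genes were followed here in the epididymal fat of lean and obese mice. The genes were 39 of the 54532 in the deposited count table, chosen by symbol as the receptors, signalling proteins, transcription factors and effector proteins by which T, B and NK cells are usually recognised. They fall into 12 genes of the T cell receptor and its signalling, 3 T cell coreceptors, 4 regulatory and checkpoint genes, 2 regulators of type 1 and type 2 responses, 9 NK and cytotoxic genes and 9 B cell and plasma cell genes. The study asked whether cells resembling cancer-associated adipocytes occur in obese adipose tissue, and RNA of whole epididymal fat was sequenced from ND-fed and HFD-fed mice, 3 samples per diet. All were male C57BL/6J mice that received ND (normal diet, 4.5% fat) or HFD (high-fat diet D12492, 60% fat) from 4 weeks of age for 16 weeks, to an age of 20 weeks, and no sample had received a compound. The labels do not say whether each sample was 1 animal or a pool of animals, so the p-values measure the spread between these samples. The samples are called ND1, ND2, ND3, HFD1, HFD2 and HFD3 after their labels, and a shared number does not link samples across diets.

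T cells recognise antigen through a receptor of variable chains that signals through the CD3 proteins, B cells through a membrane immunoglobulin that signals through CD79, and NK cells through germline-encoded receptors such as those of the Klr and Ncr families. Plasma cells, the end stage of the B lineage, secrete immunoglobulin and carry very large amounts of its mRNA. Visceral fat of lean mice holds resident lymphocytes, among them regulatory T cells and B-1 cells, and the lymphocytes of obese fat are widely studied as partners of the macrophages that gather there.

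Each library held between 16996896 and 18859320 counts (median 18727850 on ND and 17622657 on HFD). Levels are given as counts or as CPM, counts scaled to a common library size after TMM correction, and the order of levels between genes is given as FPKM, which also divides by transcript length. Shares and ratios of counts between genes are not divided by length, and are read only between libraries. A gene was called higher or lower where the adjusted p of edgeR's quasi-likelihood test, corrected over all 15751 genes tested, was under 0.05. Of all genes tested, 1552 (9.85%) were higher and 952 (6.04%) lower on HFD, and in 6444 (40.9%) the values of the diets did not overlap. The labelled tissue was checked by 15 adipocyte genes, whose summed level lay between 47450 and 63320 CPM on ND, and between 24280 and 45700 CPM with HFD feeding, and of which 1 (Lep) was higher and 4 were lower. Of 7 dendritic cell genes 1 (Ccr7) was higher, and of 7 endothelial, 3 epithelial and 2 lymph node genes tested 0 were called by edgeR, with 1, 1 and 0 at an unadjusted p under 0.05.

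Few lymphocyte genes passed the test between the diets, while the general leukocyte genes rose. Of the 39 genes 37 passed the filter on low counts, and 1 of these 37 was higher on HFD and 0 were lower, against 9.85% and 6.04% of all genes tested. The count of 0 lower genes was also obtained with DESeq2 and limma-voom. At an unadjusted p under 0.05 edgeR had 3 of the 37 genes (5353 of all genes tested, 34.0%), all with higher values on HFD, and DESeq2, which fitted all 39, had 4 with higher and 0 with lower values. The log2 fold changes of the 37 ran from -0.94 to 3.32 with a median of 0.27, beside a median of 0.01 over all genes tested, and 24 were positive and 13 negative. The values of the diets did not overlap in 7 of the 37 (40.9% of all genes tested). By contrast, 8 of 8 pan-leukocyte genes rose, with a median log2 fold change of 1.86, and 11 of 15 macrophage genes rose, with a median of 1.57. In RNA of whole tissue, a change in the number of cells of a type and a change in the RNA per cell cannot be told apart.

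**Figure D1:**
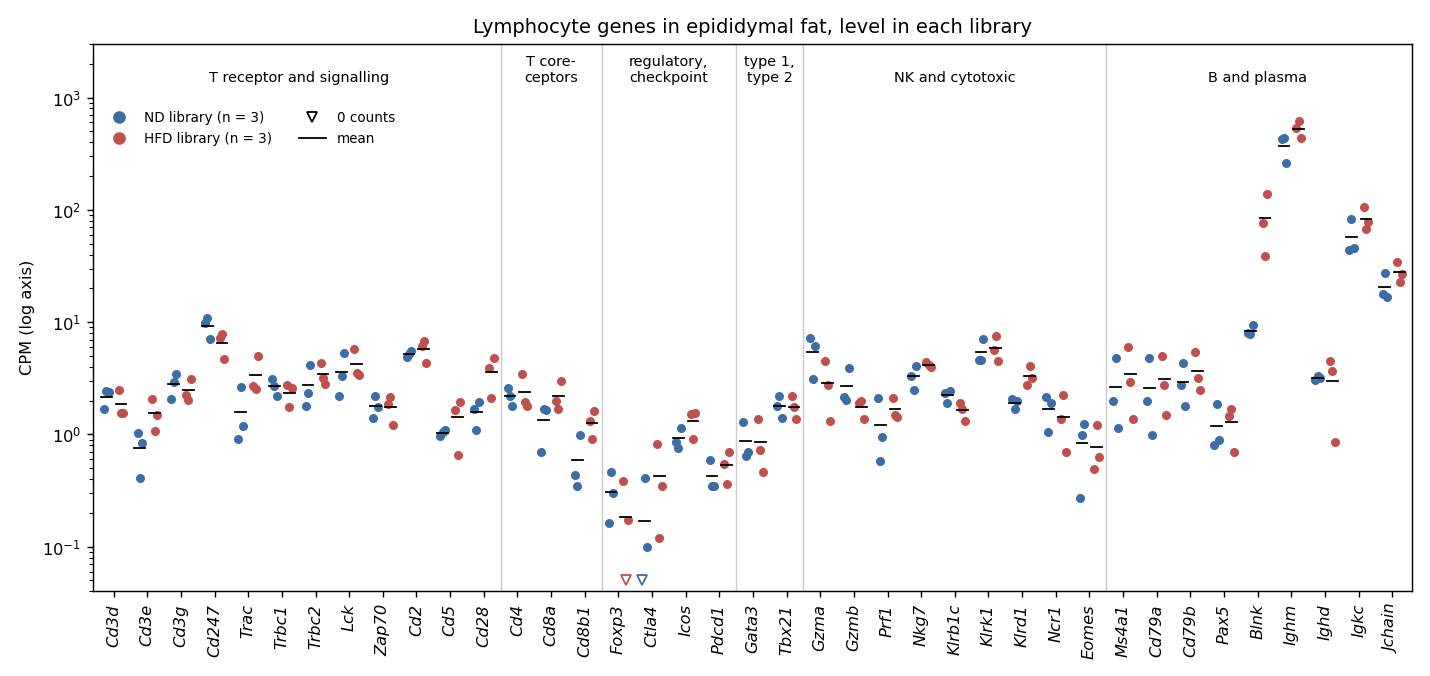
CPM (scaled counts, log axis) of the 39 lymphocyte genes in each library, blue for the 3 ND and red for the 3 HFD libraries, with the mean of each diet as a black line and libraries with 0 counts as open triangles. Only Blnk, with 7.76 to 9.45 CPM on ND and 38.6 to 138 CPM on HFD, shows an adjusted p under 0.05 between the diets.

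Most lymphocyte genes were thin in these libraries, which sets how firmly their levels can be read. Of the 39 genes, 29 stayed under 100 counts in every library and the median over all genes and libraries was 38 counts. A count of 3 amounts to 0.149 to 0.180 CPM. In FPKM, averaged over the 6 libraries, Ighm (241) and Igkc (134) stood far above the rest, followed by Jchain (9.75) and Blnk (7.77), and the other 35 genes had less than 5 FPKM. The 95% interval of the log2 fold change lay within 1 of zero in 9 of the 37 genes, so that a 2-fold change in either direction lay outside the interval for those 9 genes only. In 15 of the 37 the upper bound was under 1.

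The comparison turns on Blnk, the single one of the 39 genes called higher, and on Cd79a and Cd3e. Cd79a, a B cell gene, signals beside Blnk and did not pass the test, and Cd3e belongs to the T cell receptor. The promoters of these genes are printed. Each is the 250 bases before the transcription start in RefSeq (GRCm38.p6), 5′ to 3′ along the gene, with capitals marking matches to 2 motifs searched on both strands: the octamer ATGCAAAT, bound by POU factors, and GGAAGT, a core bound by ETS factors.
Blnk (chr19:40994222-40994471, minus strand): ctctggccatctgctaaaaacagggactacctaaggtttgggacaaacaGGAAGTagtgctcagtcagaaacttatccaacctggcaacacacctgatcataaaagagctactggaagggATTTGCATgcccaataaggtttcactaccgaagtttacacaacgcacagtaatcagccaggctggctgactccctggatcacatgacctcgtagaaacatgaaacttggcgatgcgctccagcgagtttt
Cd79a (chr7:24897247-24897496, plus strand): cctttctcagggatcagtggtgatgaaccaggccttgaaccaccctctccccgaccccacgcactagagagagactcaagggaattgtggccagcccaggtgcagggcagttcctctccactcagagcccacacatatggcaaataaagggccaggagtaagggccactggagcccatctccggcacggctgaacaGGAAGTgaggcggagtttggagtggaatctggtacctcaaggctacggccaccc
Cd3e (chr9:45009612-45009861, minus strand): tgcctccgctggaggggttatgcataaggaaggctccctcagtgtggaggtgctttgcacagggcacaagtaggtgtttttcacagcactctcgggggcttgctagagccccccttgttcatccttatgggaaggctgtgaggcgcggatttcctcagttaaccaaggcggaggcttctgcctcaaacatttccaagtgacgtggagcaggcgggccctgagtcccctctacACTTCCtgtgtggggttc
In the Blnk sequence the octamer, read on the strand opposite the gene, lay 130 to 123 bases before the start and the ETS core 201 to 196 bases before it. The ETS core lay 54 to 49 bases before the start in Cd79a and 18 to 13 bases before it, read on the strand opposite the gene, in Cd3e. RefSeq promoters were matched for 25 of the 39 genes. These genes had 30 promoters in the table. The octamer was in 1 of the 30 (Blnk) and in 1.60% of 32851 mouse promoters of the same length, and the ETS core in 12 of the 30 (11 genes) and in 19.7% of all promoters. GENCODE M21 places the outermost start of Blnk upstream of its window, and those of Cd79a and Cd3e inside theirs. The motifs do not overlap each other, and a match describes letters in this window only.

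Genes of the T cell receptor complex had fold changes in both directions, and none of the 12 passed the test. The invariant CD3 chains carry the receptor's signal into the cell. Cd3d had 31, 42 and 48 counts on ND against 46, 26 and 27 on HFD. Cd3g had 38, 51 and 70 counts on ND against 41, 34 and 54 on HFD. In both genes the values of the diets overlapped, and the log2 fold changes were -0.21 (SE 0.34, adjusted p = 0.711) for Cd3d and -0.20 (SE 0.33, adjusted p = 0.704) for Cd3g by edgeR. Cd3e had 19, 7 and 17 counts on ND against 38, 18 and 26 on HFD. Its HFD libraries all lay above its ND libraries in CPM, by a narrow margin between ND1 (1.02) and HFD2, and its log2 fold change of 1.02 (95% interval -0.04 to 2.08) did not pass the test (edgeR adjusted p = 0.161). Summed over the 3 genes, the level was 5.75 ± 0.986 CPM on ND against 5.89 ± 1.09 CPM on HFD (SD, n = 3), a ratio of 1.02.

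The ζ chain of the same complex and the antigen-binding chains also had fold changes on either side of zero. Cd247, which encodes the ζ chain used by T and NK cells, had 183, 186 and 142 counts on ND against 132, 130 and 82 on HFD. The lowest ND library (ND3) lay below the highest HFD libraries, and the log2 fold change was -0.49 (SE 0.27, edgeR adjusted p = 0.238). Of the 5329 exon bases of Cd247, 3007 are shared with Pou2f1 on the opposite strand. Whether counting used strand is not given, so reads from there may belong to either gene. Pou2f1 itself, a widely expressed transcription factor, was at 16.6 ± 1.43 CPM on ND against 18.1 ± 1.53 CPM on HFD (SD, n = 3). Trac, the constant region of the receptor α chain, had 17, 46 and 24 counts on ND against 49, 42 and 87 on HFD. ND2 reached the HFD range in Trac, and its log2 fold change of 1.10 (95% interval -0.06 to 2.26) had an edgeR adjusted p of 0.167. The β chain constant regions Trbc1 and Trbc2 had log2 fold changes of -0.19 and 0.31, with overlapping values, and each is uncertain because their transcripts are identical at 95.6% of 521 aligned bases. The variable segments of the receptor drew 17, 24 and 21 counts at the β locus on ND against 28, 26 and 24 on HFD, and 4, 6 and 8 against 15, 6 and 12 at the α locus. These are too few reads to describe a repertoire.

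Among the T cell signalling and costimulatory genes, the kinases Lck (log2 fold change 0.22) and Zap70 (-0.03) and the surface proteins Cd2 (0.14) and Cd5 (0.45) had overlapping values. Cd28, the main costimulatory receptor of T cells, stood apart from the others of its group. It had 31, 19 and 39 counts on ND against 71, 35 and 84 on HFD, or 1.57 ± 0.429 against 3.6 ± 1.38 CPM (SD, n = 3). Every HFD library was above every ND library, but HFD2 was only just so. The log2 fold change was 1.19 (95% interval 0.25 to 2.14) and the edgeR adjusted p 0.0850. Without HFD2 it was 1.47 with an edgeR adjusted p of 0.0311, and over all alternatives in which it was fitted the adjusted p ran from 0.0311 to 0.234.

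The coreceptors tell helper from cytotoxic T cells, and 0 of the 3 passed the test by edgeR or DESeq2, with 0 at an unadjusted p under 0.05 by edgeR. Cd4, which is also found on some mouse dendritic cells, had 48, 38 and 36 counts on ND against 63, 32 and 31 on HFD. HFD1 alone was above the ND range, and the log2 fold change was 0.12 (SE 0.36, edgeR adjusted p = 0.844). Cd8a had 13, 29 and 33 counts on ND against 36, 28 and 52 on HFD. In CPM its lowest HFD library lay above its highest ND library by less than the third digit (1.68 in both), and its log2 fold change was 0.72 (SE 0.44, edgeR adjusted p = 0.290). Cd8b1, the partner chain of Cd8a, had 8, 6 and 20 counts on ND against 24, 15 and 28 on HFD. ND3 lay within the HFD range of Cd8b1, and its log2 fold change was 1.08 (95% interval -0.08 to 2.25, edgeR adjusted p = 0.172). The ratio of Cd8a to Cd4 counts was 0.271, 0.763 and 0.917 on ND and 0.571, 0.875 and 1.68 on HFD, so the ranges of the diets overlapped.

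Regulatory T cell genes were close to the limit of detection. Foxp3, the transcription factor that defines these cells, had 3, 8 and 6 counts on ND against 7, 0 and 3 on HFD. Of its 4577 exon bases, 853 are shared with Flicr on the same strand. On the opposite strand 590 are shared with Ccdc22, 373 with Gm36995 and 266 with Ppp1r3f, so its counts are further uncertain. Ctla4, an inhibitory receptor, had 0, 7 and 2 counts on ND against 15, 2 and 6 on HFD. Both were under the filter and neither was tested, and a difference between the diets was not detectable at this depth. The 0 counts of Foxp3 in HFD2 allow up to 0.180 CPM, by the floor of 3 counts. Icos, a costimulatory receptor, and Pdcd1, which encodes the checkpoint receptor PD-1, had log2 fold changes of 0.52 and 0.31 with at most 28 counts in a library. The values of the diets overlapped in both. Gata3 and Tbx21, the transcription factors of type 2 and type 1 responses, had log2 fold changes of -0.04 and -0.02.

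Cytotoxic and NK genes had log2 fold changes on both sides of zero, 4 positive and 5 negative, with a median of -0.11. By edgeR 0 of 9 passed the test in either direction, with 1 of the 9 (Klrd1) at an unadjusted p under 0.05. By DESeq2 0 passed the adjusted test. Granzymes and perforin are the proteins with which cytotoxic cells kill. Gzma had 133, 54 and 123 counts on ND against 82, 46 and 23 on HFD. ND2 fell within the HFD range, and the log2 fold change was -0.94 (95% interval -2.11 to 0.23, edgeR adjusted p = 0.229). Gzmb had 40, 35 and 79 counts on ND against 35, 33 and 24 on HFD. All HFD libraries lay below the ND libraries in CPM, with HFD2 and ND2 nearly level, and the log2 fold change was -0.62 (SE 0.37, edgeR adjusted p = 0.280). Prf1, perforin, had 39, 10 and 19 counts on ND against 39, 25 and 25 on HFD. ND1 equalled the highest HFD library in counts, so the diets overlapped, and the log2 fold change was 0.48 (SE 0.50, edgeR adjusted p = 0.542). Nkg7, a protein of cytotoxic granules, had a log2 fold change of 0.34.

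The NK receptors and the NK transcription factor Eomes were no more uniform. Klrb1c encodes NK1.1, the receptor used to identify NK cells in this strain. Klrb1c had 43, 33 and 49 counts on ND against 35, 28 and 23 on HFD. The diets did not overlap in CPM, ND2 and HFD1 being nearly level, and the log2 fold change was -0.44 (SE 0.31, edgeR adjusted p = 0.349). Ncr1, the activating receptor NKp46, had 40, 18 and 38 counts on ND against 25, 37 and 12 on HFD. Eomes had 5, 17 and 25 counts on ND against 9, 20 and 11 on HFD. In both genes the libraries of the diets were interleaved, with log2 fold changes of -0.26 (SE 0.50) and -0.11 (SE 0.62). Klrk1, the activating receptor NKG2D, had a log2 fold change of 0.11 with overlapping values. Klrd1, the CD94 chain shared by activating and inhibitory receptors, had 38, 29 and 40 counts on ND against 50, 67 and 55 on HFD, or 1.91 ± 0.198 against 3.31 ± 0.663 CPM (SD, n = 3). The groups did not overlap, and the log2 fold change was 0.79 (95% interval 0.11 to 1.47, edgeR adjusted p = 0.103). On log2(FPKM + 0.1) with limma the adjusted p was 0.0486, with a log2 difference of 0.73, and over all alternatives it ran from 0.0486 to 0.248.

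**Figure D2:**
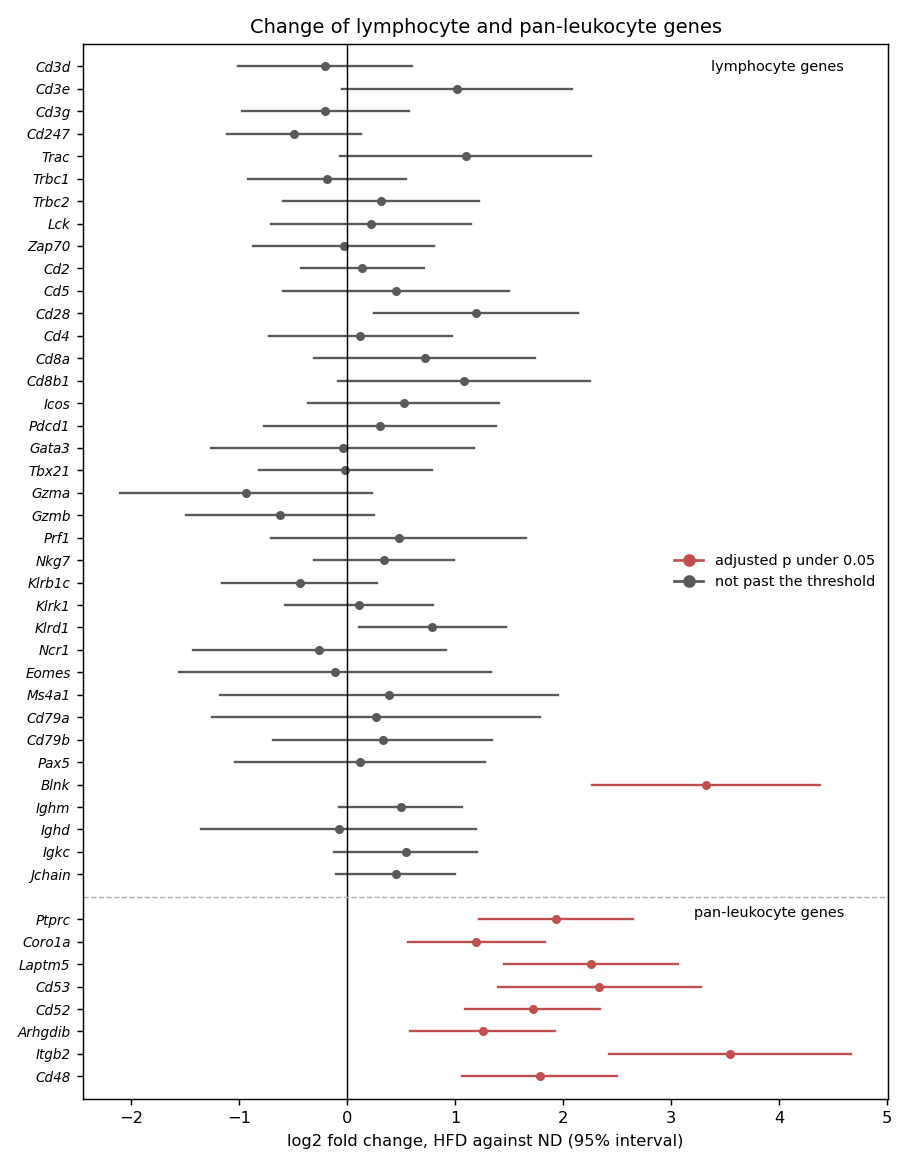
Log2 fold change of HFD against ND (points) with its 95% interval (bars) for the 37 lymphocyte genes tested and, under the dashed line, 8 pan-leukocyte genes, red where the edgeR adjusted p was under 0.05. Of the lymphocyte genes 1 (Blnk, 3.32) is red and of the pan-leukocyte genes 8.

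Ms4a1, Cd79a, Cd79b and Pax5 varied more between libraries of one diet than between the diets. Ms4a1 encodes CD20, a surface protein of mature B cells, and had 37, 82 and 23 counts on ND against 109, 49 and 24 on HFD. Cd79a, a signalling chain of the B cell receptor, had 37, 82 and 20 counts on ND against 92, 46 and 26 on HFD. Cd79b, its partner chain, had 51, 74 and 36 counts on ND against 99, 53 and 43 on HFD. In all 3 genes the libraries stood in the same order by CPM, HFD1 highest, then ND2, HFD2, ND1, HFD3 and ND3, so that each diet contributed both a high and a low library. The log2 fold changes were 0.39 (SE 0.67) for Ms4a1, 0.27 (SE 0.65) for Cd79a and 0.33 (SE 0.43) for Cd79b, with edgeR adjusted p-values from 0.629 to 0.804. Without HFD1 they were -0.30, -0.30 and -0.08, and without ND2 they were 1.13, 1.05 and 0.70. Pax5, the transcription factor that commits cells to the B lineage, had 15, 32 and 18 counts on ND against 27, 28 and 12 on HFD. Its highest library was ND2 and its lowest HFD3, and its log2 fold change was 0.12 (SE 0.49).

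The shared library order was looked at further after these values were seen. The 2 libraries with the highest CPM were ND2 and HFD1 in 5 of the 9 B cell and plasma cell genes (Ms4a1, Cd79a, Cd79b, Igkc and Jchain), in 8 of 18 further B cell genes and in 230 of all 15751 genes tested (1.46%). They were ND2 and HFD1 in 1 of 12 T cell receptor and signalling genes and in 0 of 9 NK and cytotoxic genes. Cxcl13, the chemokine that draws B cells into follicles, had 107, 234 and 37 counts on ND against 235, 85 and 34 on HFD, again with ND2 and HFD1 highest and ND3 and HFD3 lowest. Ltb, a cytokine of lymphoid tissue formation, also had ND2 and HFD1 highest. Of the other lymph node genes, the chromosomal entry of Ccl21a had at most 1 count in a library and a second Ccl21a entry on a scaffold had 235, 37 and 33 counts on ND against 29, 18 and 6 on HFD, while both entries of Ccl19 were at 0. The part of lymphoid tissue in the B cell levels of these libraries was not tested.

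Blnk was the one gene of the 39 that was called higher on HFD. It encodes an adaptor protein that links the activated B cell receptor to downstream signalling, and its transcript is also known from macrophages. It had 147, 134 and 190 counts on ND against 1394, 641 and 2396 on HFD. The 3 ND libraries lay close together at 7.93, 7.76 and 9.45 CPM and the HFD libraries far above them at 76.1, 38.6 and 138 CPM. This was a 10.01-fold rise (95% interval 4.82 to 20.8; log2 fold change 3.32, SE 0.45, edgeR adjusted p = 0.00805). Per length, Blnk went from 1.42 ± 0.148 FPKM on ND to 14.1 ± 8.38 FPKM on HFD (SD, n = 3). In the same libraries Cd79a, whose product acts just above it in the receptor pathway, had means of 1.81 FPKM on ND and 2.14 FPKM on HFD.

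By library, Blnk did not follow the other B cell genes. Its order was HFD3, HFD1, HFD2, ND3, ND1 and ND2, with HFD3 highest, whereas HFD3 was next to lowest in Ms4a1, Cd79a and Cd79b. The macrophage gene Adgre1, which encodes F4/80, had HFD3, HFD1 and HFD2 highest in that order, as had the macrophage genes Cd68 and Itgax. So had 2139 of all 15751 genes tested (13.6%). These 2139 are among the 3446 genes with every HFD library above every ND library, so the order is common among such genes. The 2 highest libraries were HFD1 and HFD3 in 13 of 15 macrophage genes, 8 of 8 pan-leukocyte genes and 23.5% of all genes tested. Cd68 had 641, 548 and 559 counts on ND against 6966, 3253 and 11571 on HFD, a log2 fold change of 3.72 (edgeR adjusted p = 0.00642). Itgax, which encodes CD11c of dendritic cells and of macrophages in obese fat, had 191, 104 and 174 counts on ND against 2450, 2126 and 5614 on HFD, a log2 fold change of 4.54 (edgeR adjusted p = 0.00448). The 15 macrophage genes summed to 2013 to 2116 CPM on ND and 4326 to 9422 CPM on HFD. The part of macrophages in the level of Blnk was not tested.

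**Figure D3:**
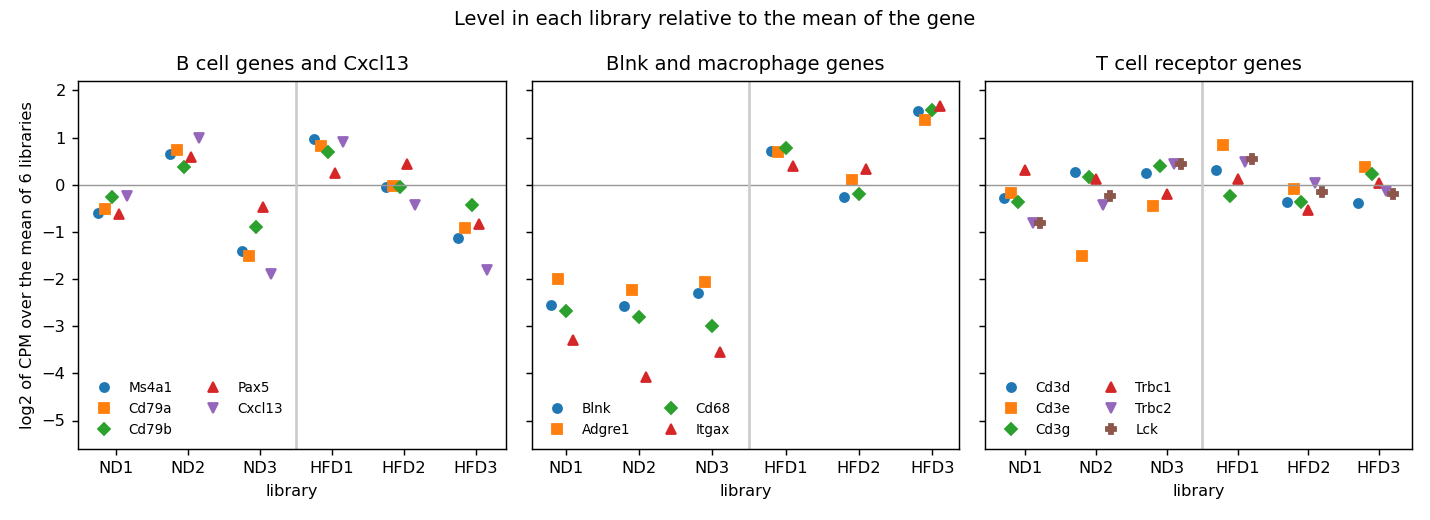
Log2 of each gene's CPM over its mean in the 6 libraries, for 4 B cell genes with Cxcl13 (left), Blnk with 3 macrophage genes (middle) and 6 T cell receptor genes (right). Ms4a1, Cd79a, Cd79b and Cxcl13 are high in ND2 and HFD1 and low in ND3 and HFD3. Pax5 is highest in ND2 and lowest in HFD3, with HFD2 above HFD1. Blnk and the macrophage genes are low in every ND library and highest in HFD3.

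Set against the counts of Ptprc, a general leukocyte gene that itself rose, T and NK transcripts had lower values on HFD and Blnk had higher ones. Ptprc encodes CD45, a surface protein of all leukocytes, and had 1040, 787 and 1092 counts on ND against 3318, 2059 and 5064 on HFD (log2 fold change 1.93, edgeR adjusted p = 0.0111). For every 1000 Ptprc counts, Cd3d, Cd3e and Cd3g together had 84.6, 127 and 124 counts on ND against 37.7, 37.9 and 21.1 on HFD. Klrb1c, Ncr1 and Eomes together had 84.6, 86.4 and 103 on ND and 20.8, 41.3 and 9.08 on HFD. The ranges of the diets did not overlap in either sum. The 4 B cell genes Ms4a1, Cd79a, Cd79b and Pax5 had 135, 343 and 88.8 on ND and 98.6, 85.5 and 20.7 on HFD, with HFD1 inside the ND range. Blnk had 141, 170 and 174 on ND and 420, 311 and 473 on HFD. The macrophage gene Adgre1 also had higher ratios, with 865, 916 and 865 on ND and 1758, 1703 and 1734 on HFD. These ratios divide by a gene that itself rose and were not tested. Any gene with level counts also gets lower ratios on HFD. Pou2f1, with 283, 283 and 364 counts on ND against 345, 318 and 284 on HFD, is such a gene. The lower T and NK ratios and their lack of overlap therefore do not show a fall of these genes.

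Immunoglobulin transcripts were the most abundant lymphocyte RNA on both diets. Ighm, the constant region of the μ heavy chain of IgM, had 7893, 7507 and 5214 counts on ND against 9726, 10236 and 7525 on HFD. HFD3 was within the ND range, and the level went from 373 ± 98.8 to 526 ± 91.5 CPM (SD, n = 3; log2 fold change 0.49, 95% interval -0.08 to 1.07, edgeR adjusted p = 0.200). Igkc, the κ light chain constant region, had 822, 1418 and 923 counts on ND against 1939, 1113 and 1359 on HFD. ND2 lay within the HFD range and the log2 fold change was 0.54 (SE 0.28, edgeR adjusted p = 0.220). Jchain, which joins secreted IgM and IgA into polymers, had 328, 469 and 336 counts on ND against 626, 380 and 471 on HFD. It too overlapped between the diets, with a log2 fold change of 0.45 (SE 0.23, edgeR adjusted p = 0.220). Ighd, the δ chain of naive B cells, had 57, 57 and 64 counts on ND against 83, 61 and 15 on HFD and a log2 fold change of -0.08. HFD3 alone was low in Ighd.

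Most heavy chain constant region counts were from Ighm in every library. Ighm took 94.5%, 94.0% and 81.4% of the heavy chain constant region counts on ND against 91.5%, 94.6% and 86.4% on HFD, of totals of 6402 to 10825 counts. Igha, of IgA, took 4.14%, 4.08% and 8.94% on ND and 5.35%, 2.98% and 9.75% on HFD. ND3 and HFD3 thus had the lowest share of IgM and the highest of IgA, 1 library of each diet. ND3 also held 5.64% Ighg2b (95% Wilson interval 5.10 to 6.23%, 361 counts), against 0.0501% to 0.866% in the other 5 libraries. Ighg2c, an IgG2 class of this strain, was the heavy chain class called higher on HFD. It had 46, 19 and 67 counts on ND against 116, 149 and 261 on HFD, with no overlap and a log2 fold change of 2.12 (SE 0.48, edgeR adjusted p = 0.0275), and its share of heavy chain counts was 0.551%, 0.238% and 1.05% on ND and 1.09%, 1.38% and 2.997% on HFD. Intervals on these shares cover counting error only. The heavy chain variable segments had only 4.12 to 5.95 counts for every 100 heavy chain constant region counts, whereas the κ segments had 58.9 to 69.0 for every 100 Igkc counts, and Ighm counts were 5.02 to 9.60 times the Igkc counts. What share of the Ighm counts came from rearranged heavy chains was not tested.

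**Figure D4:**
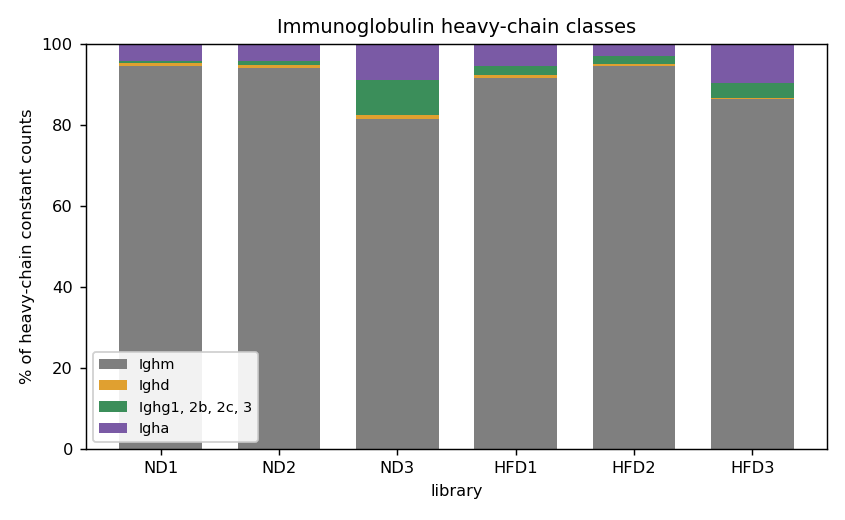
Share of each immunoglobulin class in the heavy-chain constant region counts of each library (stacked bars, %), with the IgG classes added together. Ighm takes 81.4% to 94.6% in every library, and ND3 and HFD3 have the lowest Ighm and the highest Igha shares.

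Igkc took 87.8% to 94.2% of light chain constant region counts over the 6 libraries. Variable segment counts were spread over many segments. At the heavy chain locus the 113 variable segments drew 344, 473 and 346 counts on ND against 632, 550 and 499 on HFD. Between 41 and 61 segments had a count in a library. The leading segment differed between the ND libraries (Ighv1-26, Ighv1-55 and Ighv6-6) and was Ighv11-2 in all 3 HFD libraries. Ighv11-2 is known from the natural antibodies of B-1 cells, where it is typically joined to the light chain segment Igkv14-126. It had 25, 62 and 10 counts on ND against 116, 68 and 78 on HFD, which is 7.27%, 13.1% and 2.89% of the segment counts on ND against 18.4%, 12.4% and 15.6% on HFD. ND2 lay inside the HFD range by share, and the log2 fold change of 1.46 did not pass the test (edgeR adjusted p = 0.154). Igkv14-126 had 88, 154 and 47 counts on ND against 266, 93 and 141 on HFD and led in ND1 and in all 3 HFD libraries. Its values overlapped between the diets (log2 fold change 0.82, edgeR adjusted p = 0.315). These segments were picked after their counts were seen, similar segments share reads, and bulk RNA does not show which chains were paired.

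A wider set of 87 lymphocyte genes, listed by cell type, was read beside the 39. Of these, 73 were tested, 12 were higher (9.85% of all genes tested) and 2 lower (6.04%), and the median log2 fold change was 0.17. By list, 4 of 25 further T cell genes were higher and 1 lower, 1 of 14 NK genes was higher, 5 of 18 B cell genes were higher, 2 of 11 plasma cell genes were higher and 1 of 5 genes of type 2 innate lymphoid cells was lower. The count of higher genes depended on single libraries: it was 2 without ND1, 3 without ND2 or without HFD1 and 4 without ND3.

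The 5 genes of the wider set that rose with the smallest p-values all had HFD3 highest, as had 32.7% of all genes tested. Among the 3446 genes with every HFD library above every ND library, HFD3 was highest in at least 2139. The pattern is thus common among genes that rose and does not set these 5 apart. Il7r, the interleukin-7 receptor on which lymphocytes depend and which some macrophages also make, had 30, 25 and 37 counts on ND against 1467, 796 and 2546 on HFD (log2 fold change 5.79, SE 0.47, edgeR adjusted p = 0.00329). Cd72, a coreceptor of B cells, had 32, 47 and 72 counts on ND against 532, 246 and 1064 on HFD (log2 fold change 3.70, SE 0.56, edgeR adjusted p = 0.0102), but 1423 of its 3422 exon bases are shared with Tesk1 on the opposite strand. In both genes every HFD library was several times above every ND library. Cd37, a tetraspanin of B cells and other leukocytes, rose by 1.87 on the log2 scale (edgeR adjusted p = 0.00872). Sh2d1b1, an adaptor of NK cells, rose by 2.33 (edgeR adjusted p = 0.0170), and Sdc1, the plasma cell marker syndecan-1, which epithelial and stromal cells also carry, by 2.15 (edgeR adjusted p = 0.0200). The other 7 that rose were Cd6, Themis, Ccr7, Cd22, Pou2f2, Tnfrsf13b and Ighg2c.

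Il17rb, the interleukin-25 receptor of type 2 innate lymphoid cells, had 59, 34 and 150 counts on ND against 7, 20 and 6 on HFD (log2 fold change -2.71, SE 0.69, edgeR adjusted p = 0.0398). All HFD libraries were below the ND libraries. ND3 was the highest ND library in Il17rb, and the library ND3 also stood apart in 8 epithelial genes, which summed to 277 CPM there and to between 21.3 and 31.1 CPM in the other 5. The part of epithelial RNA in Il17rb was not tested.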

How the data were processed

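RNA of epididymal fat was sequenced from mice on ND or HFD, 3 samples each, grouped by the diet in the labels. The authors deposited raw counts per gene and FPKM made from the same reads, with mouse Ensembl identifiers. Per the paper's methods reads were mapped to GRCm38 with TopHat, while the submitters' processing notes name CASAVA 1.8, fastp, HISAT2 2.0.5, featureCounts 1.5.0-p3, DESeq2 1.20.0 and the builds GRCh38 and hg38 without a role, so which made the counts is unsettled. Whether counting used strand is not given in the sources used here. The ratio of count to deposited FPKM was constant between libraries within 1.2e-06% over 11492 genes.

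Identifiers were named from GENCODE M21 (GRCm38), where 54495 of 54532 were found. The members and lists were chosen with earlier results of these data known. Counts were fitted with edgeR 4.0.16 (R 4.3.3; filterByExpr, TMM, robust quasi-likelihood fit, diet as the only factor, Benjamini-Hochberg over all 15751 genes tested, threshold 0.05), a step tested on simulated data. Values in every library are given for genes that define a lymphocyte type and for members past the threshold. Of the wider lists, the 5 higher genes of smallest p are described, not all with values in every library. DESeq2 1.42.0, limma 3.58.1 with voom, limma on log2(FPKM + 1) and log2(FPKM + 0.1) with a minimum of 0.5 FPKM in 3 libraries or none, other scalings and filters, a replicate block and the omission of each library were the alternatives. Within-diet pairs of libraries differed beyond counting noise (chi-square per gene 21.7 to 170), so none was a copy. Intervals cover counting error or the spread of 3 samples, and an exact permutation test of 3 against 3 cannot go below 0.10. Some genes of the wider lists are counted but not reported here by name.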

Additional observations from a re-analysis of the deposited data

How the results depend on the processing

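Over 17 alternative settings Blnk was past the threshold in each, with log2 fold changes of 2.49 to 3.67 and adjusted p-values up to 0.0468, and no member was called lower in any. The count of members called higher was 1, and 2 with limma on log2(FPKM + 0.1), where Klrd1 was added. Leaving out 1 library gave 1 to 2, the second being Cd28 without HFD2. In the wider lists the count of higher genes, 12, was 2 with limma on unfiltered log2(FPKM + 1), and 2 to 14 when 1 library was left out. The count of lower genes, 2, was 1 with limma on log2(FPKM + 0.1), on log2(FPKM + 1) and on unfiltered log2(FPKM + 1), 1 with the replicate block, and 0 to 3 when 1 library was left out. The causes were not tested. Over all genes, 1552 were higher and 952 lower, 394 and 255 on unfiltered log2(FPKM + 1), 1617 lower with DESeq2, and 337 to 2368 higher and 94 to 1572 lower when 1 library was left out. Same-numbered samples of the diets did not deviate together (r -0.09, -0.06 and -0.01), and with the replicate block 1 member was higher. In 13 of 37 members, of which none was called and the largest log2 fold change was 0.39 in size, the sign changed in at least 1 setting. Depth limits most members: 29 of 39 had fewer than 100 counts in every library.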
